A study of Mus musculus with 6 samples.

Results

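The genes described here are 32 listed genes of glucose uptake, glycolysis, lactate handling, pyruvate oxidation and the hypoxia response. The deposited table holds 41669 gene symbols. The 32 genes were chosen by name for their pathway, and all 32 are rows of the table. The samples were splenic B cells from 3 females and 3 males of the NZB/W F1 hybrid, which develops a spontaneous lupus-like disease, with 1 RNA sequencing library per mouse. Every mouse of either sex was at the late stage of the disease. In both sexes, B cells were purified by positive selection on a column and kept in culture with CpG, an activator of Toll-like receptor 9, for 24 h. The labels used here give neither an age nor a CpG dose. No unstimulated or disease-free cells were analysed here, and each level is that of a stimulated culture from a diseased mouse.

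Glycolysis splits glucose into pyruvate through a chain of cytosolic enzymes, and lactate dehydrogenase turns pyruvate into lactate, which leaves the cell through monocarboxylate transporters. Activated B cells take up more glucose and raise glycolysis as they grow and divide. Hypoxia-inducible factor (HIF) is a transcription factor whose alpha subunit is hydroxylated and degraded when oxygen is plentiful. In low oxygen it accumulates and activates genes for glycolysis, lactate export, oxygen sensing and mitochondrial turnover.

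A level below is CPM, the estimated count per 1000000 counts of its library, and values are given for female 1, 2 and 3 and then male 1, 2 and 3. A fold change is the log2 ratio of females over males from edgeR with its standard error (SE), and it uses TMM-scaled library sizes, so its sign can differ from that of the mean CPM. Library totals ran from 24089561 to 35659883 estimated counts, and 3 counts, taken as the floor of detection, equalled 0.0841 to 0.125 CPM. Of the 32 genes, 31 passed the low-count filter, among 12172 genes tested. Female 3 stood apart from the other 5 libraries, at 94.2 on the first principal component (50.8% of the variance) against -47.9 to 6.66, so the fold changes below are also summarised without it. The column sort was checked by B cell markers, all 8 of which were tested and which summed to 2270 to 2490 CPM in females and 2320 to 2520 CPM in males.

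Among these genes, levels were highest for steps of lower glycolysis and for the main lactate transporter. Between genes, levels were compared as CPM per kb of the longest coding transcript, averaged over 6 libraries. Whether the estimated counts were adjusted for transcript length before deposit is not stated in the labels, and such an adjustment could change these levels and the isoform shares. Pgam1, the phosphoglycerate mutase, was highest at 230 CPM per kb (205 in females, 254 in males). Pgk1, the X-linked phosphoglycerate kinase, followed at 209 (190 in females, 228 in males), and Slc16a1, the lactate transporter MCT1, at 106 (105 in females, 107 in males). Pdha1, Hif1a, Gapdh, Eno1 and Ldha came next, between 42.5 and 63.9 CPM per kb. A further 10 genes lay between 10.3 and 29.6 CPM per kb, in the order Bnip3, Pfkp, Ankrd37, Tpi1, Hk2, Aldoa, Pdk1, P4ha1, Egln1 and Pkm. Gpi1, Pfkfb3, Slc2a3 and Slc2a1 held 4.56 to 8.86 CPM per kb, 9 genes held 2.01 or less, and Hk3 was at 0. Slc16a1 was above Pdha1 in every library, and Slc16a3, the lowest gene detected, was under the floor in 2 libraries and could not be placed against Hk3 there. For the others the library ranges of neighbours in this order overlapped, and the order given is that of the means. Overlapping ranges do not settle the order within a library. Slc2a1, for example, was 36.7 to 48.2% of its pair with Slc2a3, and so below Slc2a3 in every library. In bulk RNA, fewer cells with a transcript and less of it per cell cannot be told apart.

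**Figure D1:**
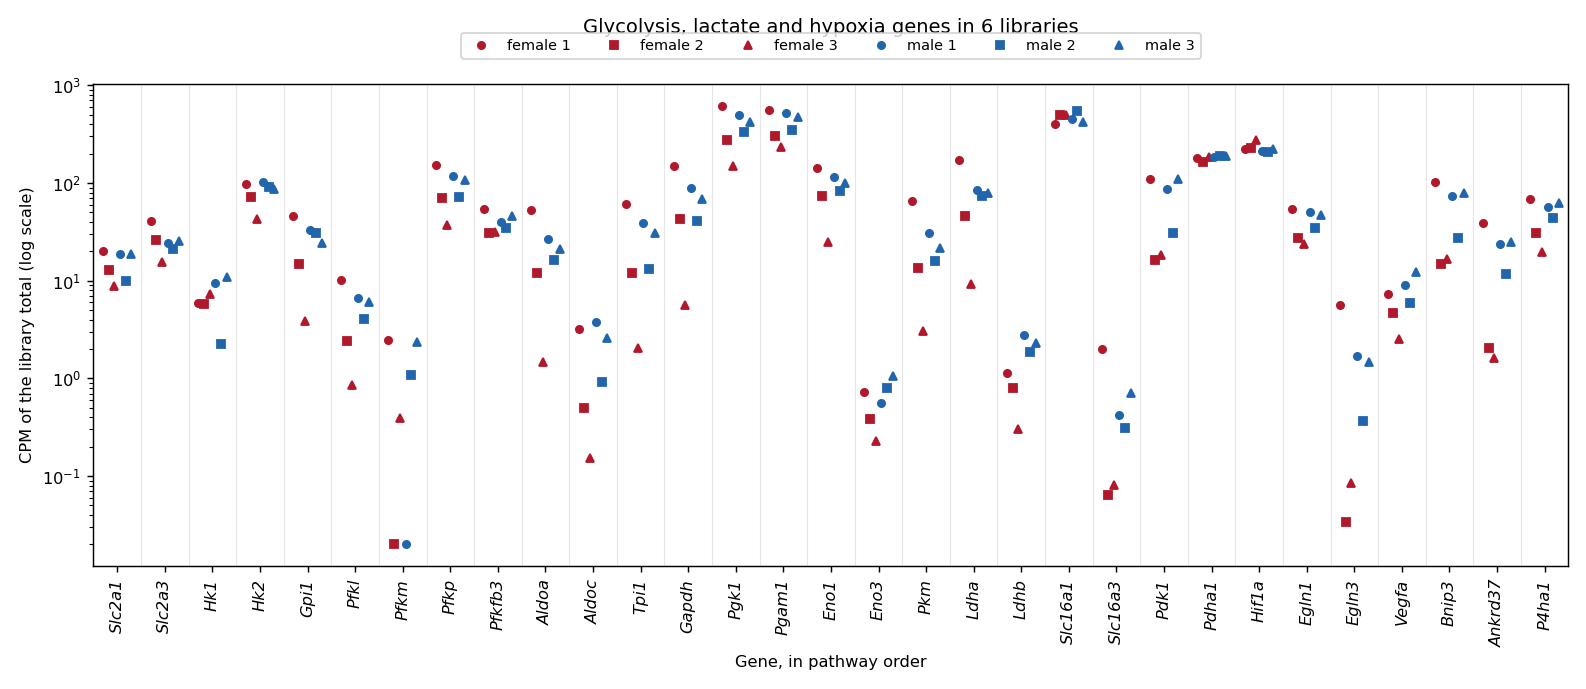
CPM of the library total (log scale) of 31 genes in pathway order, with females in red left of males in blue and 1 point per mouse (circle 1, square 2, triangle 3). Hk3, listed at 0 in all 6 libraries, is left out, and 2 Pfkm values below 0.02 CPM are drawn at 0.02. Pgam1, Pgk1 and Slc16a1 are near the top in every library, and for most enzymes the red circle is highest and the red triangle lowest.

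At the entry to the pathway, both glucose transporters were at low to moderate levels. Slc2a1, the widespread glucose transporter GLUT1, had 20.2, 13.0 and 8.79 CPM in females and 18.7, 9.98 and 18.6 CPM in males. Slc2a3, the high-affinity transporter GLUT3, had 41.0, 26.1 and 15.7 CPM in females and 24.4, 20.9 and 25.3 CPM in males. In both cases female 1 was highest and the sexes overlapped. Per kb, Slc2a1 made up 38.5% ± 1.63 of the pair in females and 44.0% ± 6.33 in males (SD, n = 3 each, two-sided exact permutation p = 0.4, adjusted 0.64 over 8 families). With 3 against 3 libraries this test cannot go below 0.1, which holds for every share below.

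Of the hexokinases, which trap glucose by phosphorylation, Hk2 dominated. It had 98.9, 71.8 and 43.0 CPM in females and 102, 91.9 and 87.0 CPM in males, with female 3 lowest. Hk1 had 5.94, 5.73 and 7.30 CPM in females and 9.40, 2.27 and 11.0 CPM in males, so the males spanned the females on both sides. Hk3, a hexokinase of myeloid cells, was listed at 0 in all 6 libraries, which allows at most 0.0841 to 0.125 CPM. Hk2 was 88.5% ± 5.69 of hexokinase per kb in females and 90.7% ± 5.61 in males (SD, n = 3 each, exact permutation p = 0.7, adjusted 0.933).

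Gpi1, which converts glucose phosphate to fructose phosphate, had 45.6, 15.0 and 3.90 CPM in females and 33.2, 31.0 and 24.6 CPM in males. The males lay within a narrow range, with female 1 above it and females 2 and 3 below it. Among phosphofructokinases, which commit sugar to glycolysis, the platelet-type isoform Pfkp had 152, 69.8 and 37.0 CPM in females and 119, 71.9 and 108 CPM in males. The liver-type Pfkl had 10.1, 2.44 and 0.849 CPM in females and 6.59, 4.05 and 6.12 CPM in males. The muscle-type Pfkm had 2.50 and 0.396 CPM in females 1 and 3 and 1.09 and 2.34 CPM in males 2 and 3, and was under the floor in female 2 and male 1. Pfkp was 94.5% ± 2.91 of the family per kb in females and 92.6% ± 1.44 in males (SD, n = 3 each, exact permutation p = 0.4, adjusted 0.64). Pfkp shares sequence with Pitrm1 on the opposite strand, which averaged 94.2 CPM, and no source used here says whether counting was strand-specific, so its level is uncertain. Pfkfb3, whose product makes the phosphofructokinase activator fructose bisphosphate, had 53.7, 30.8 and 31.2 CPM in females and 40.1, 34.4 and 45.9 CPM in males, with both sexes overlapping.

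The middle enzymes varied widely between mice. Aldoa, the aldolase of most tissues, had 53.3, 11.9 and 1.46 CPM in females and 27.0, 16.4 and 20.9 CPM in males. Aldoc, the brain-type aldolase, had 3.23, 0.493 and 0.154 CPM in females and 3.81, 0.923 and 2.62 CPM in males. Aldoa was 96.3% ± 1.68 of the pair per kb in females and 94.4% ± 2.26 in males (SD, n = 3 each, exact permutation p = 0.3, adjusted 0.64). The Aldoa level was 36.4-fold higher in female 1 than in female 3. Tpi1, the triose phosphate isomerase, had 61.5, 11.9 and 2.05 CPM in females and 38.6, 13.2 and 30.6 CPM in males. Female 1 lay above the male range of Tpi1 and females 2 and 3 below it.

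Gapdh, the glyceraldehyde phosphate dehydrogenase often taken as a reference gene, had 148, 42.9 and 5.62 CPM in females and 88.0, 41.3 and 69.3 CPM in males. It was 26.3-fold higher in female 1 than in female 3, and its within-sex SD of 1.52 log2 units was larger than that of 99.8% of tested genes. The annotation holds 177 genes or pseudogenes with stretches near-identical to Gapdh (at least 90% identity over 300 bp), and those in the table summed to 12.0 CPM, 15.4% of Gapdh and copies together, so the split between them is uncertain. Pgk1 had 620, 273 and 149 CPM in females and 498, 330 and 422 CPM in males. Pgam1 had 554, 306 and 235 CPM in females and 527, 353 and 471 CPM in males. Both followed the same order in females as Gapdh, over a smaller range.

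Eno1, the enolase of most tissues, had 141, 73.9 and 25.0 CPM in females and 116, 83.5 and 101 CPM in males, and the muscle-type Eno3 stayed at 0.228 to 0.731 CPM in females and 0.562 to 1.06 CPM in males. Eno1 was 99.2% ± 0.289 of the pair per kb in females and 98.9% ± 0.389 in males (SD, n = 3 each, exact permutation p = 0.4, adjusted 0.64). Pkm, the pyruvate kinase of the final step, had 64.8, 13.4 and 3.04 CPM in females and 30.8, 16.0 and 21.5 CPM in males. As for Aldoa and Tpi1, female 1 was above every male and female 3 below every male.

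Nearly all lactate dehydrogenase RNA was Ldha, and Ldhb was the only gene of the 31 whose sexes did not overlap. Ldha, the dehydrogenase subunit that favours lactate formation, had 171, 45.6 and 9.19 CPM in females and 85.3, 73.9 and 78.5 CPM in males. Ldhb (chr6:142490249-142507957, minus strand, GRCm38), the heart-type subunit, had 1.13, 0.805 and 0.300 CPM in females and 2.77, 1.86 and 2.33 CPM in males, so every female was below every male. Its log2 fold change was -1.56 ± 0.47 (SE), with an edgeR p of 0.0109 before adjustment and 0.999 after Benjamini-Hochberg adjustment over all genes, so it was not called. Ldha was 97.4% ± 1.72 of the pair per kb in females and 96.1% ± 0.471 in males (SD, n = 3 each, exact permutation p = 0.4, adjusted 0.64).

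The main lactate transporter did not follow the order of the enzymes. Slc16a1 had 406, 495 and 496 CPM in females and 450, 552 and 421 CPM in males, with female 1 lowest. Slc16a3, the lactate exporter MCT4 of strongly glycolytic cells, had 2.02 CPM in female 1, was under the floor in females 2 and 3, and had 0.422, 0.310 and 0.709 CPM in males. Slc16a1 was 99.8% ± 0.284 of the pair per kb in females and 99.9% ± 0.0581 in males (SD, n = 3 each, exact permutation p = 1.0, adjusted 1.0).

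Pyruvate inside mitochondria is oxidised by the pyruvate dehydrogenase complex, whose alpha subunit is encoded by the X-linked Pdha1. The complex is inhibited by the kinase Pdk1, a known HIF target. Pdha1 was among the steadiest of the genes, with 179, 166 and 185 CPM in females and 184, 189 and 189 CPM in males. It shares sequence with Map3k15, which averaged 2.98 CPM. Pdk1 had 109, 16.3 and 18.5 CPM in females and 87.8, 31.0 and 109 CPM in males. Females 2 and 3 and male 2 were the low libraries for Pdk1, and the sexes overlapped.

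Hif1a, the HIF alpha subunit, had a within-sex SD of 0.27 log2 units, the median of all tested genes. It had 222, 231 and 279 CPM in females and 211, 207 and 224 CPM in males, and its log2 fold change was 0.35 ± 0.20 (SE). The overlap of the sexes rested on female 1 and male 3, at 222 and 224 CPM. Egln1, the prolyl hydroxylase PHD2 that marks the alpha subunit for decay, had 53.8, 27.3 and 23.5 CPM in females and 50.7, 35.0 and 46.9 CPM in males. Egln3, the hypoxia-induced hydroxylase PHD3, had 5.70 CPM in female 1, was under or near the floor in females 2 and 3, and had 1.71, 0.363 and 1.47 CPM in males. Egln1 was 95.6% ± 7.04 of the pair per kb in females and 96.7% ± 1.64 in males (SD, n = 3 each, exact permutation p = 1.0, adjusted 1.0), with the lowest share, 87.5%, in female 1.

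Bnip3, a mitophagy receptor induced by HIF, had 102, 14.7 and 16.5 CPM in females and 72.9, 27.1 and 78.5 CPM in males. Ankrd37, an ankyrin-repeat HIF target, had 39.4, 2.04 and 1.61 CPM in females and 23.5, 11.7 and 24.7 CPM in males. For both, as for Pdk1, female 1 and males 1 and 3 were high and females 2 and 3 and male 2 were low. P4ha1, a collagen prolyl hydroxylase, had 69.1, 30.5 and 19.8 CPM in females and 57.1, 43.7 and 63.1 CPM in males. Vegfa, the angiogenic growth factor, was low, with 7.23, 4.68 and 2.51 CPM in females and 9.06, 5.94 and 12.3 CPM in males. Its log2 fold change was -0.84 ± 0.39 (SE, edgeR adjusted p = 0.999).

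**Figure D2:**
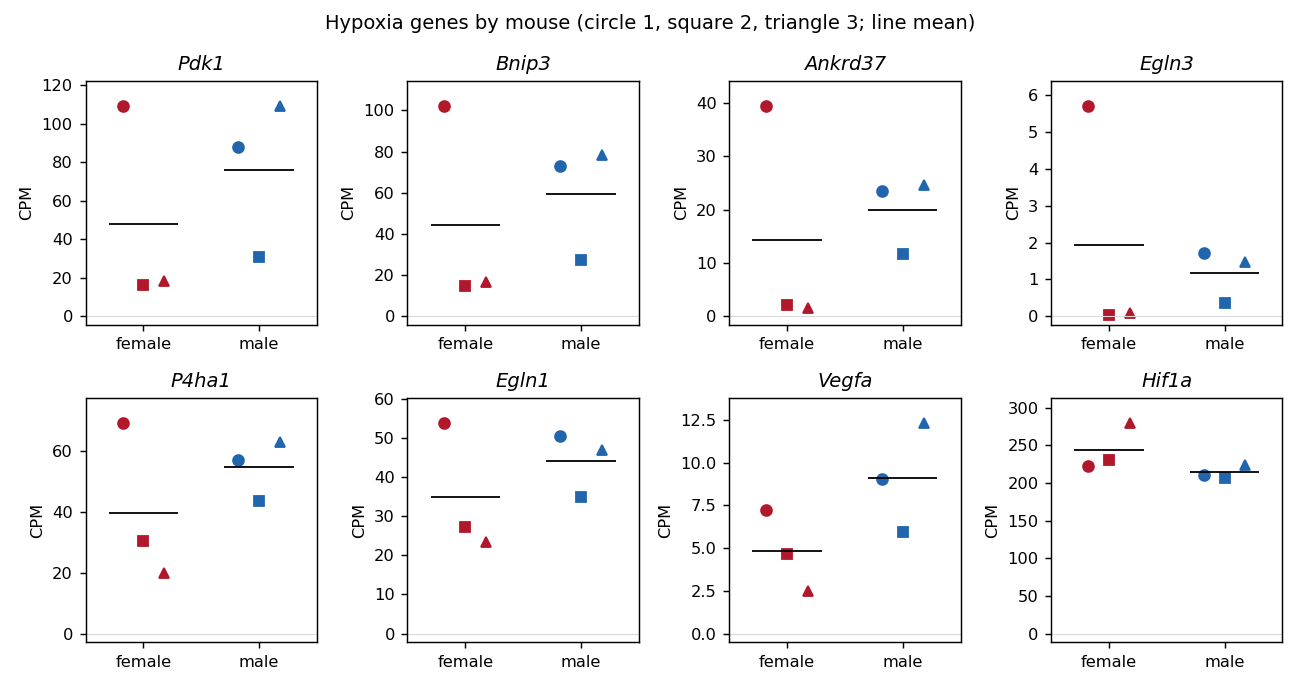
CPM of the library total of Pdk1 and 7 genes of oxygen sensing and the HIF response, females in red left of males in blue, with 1 point per mouse (circle 1, square 2, triangle 3) and a line at the mean of 3. Pdk1, Bnip3 and Ankrd37 are low in females 2 and 3 and lowest among males in male 2, while Hif1a lies between 207 and 279 CPM in every library.

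HIF binds the core letters ACGTG or GCGTG, and promoter windows were read for both. The 250 bases before an annotated start (RefSeq, GRCm38.p6) held ACGTG on either strand for 19 of the 31 genes with a window (61.3%). This compared with 25.4% of the tested genes with a window and 18.5% of all genes with one. By window the ACGTG shares were 48.9% of 45 windows, against 21.9% of the windows of tested genes. GCGTG was read in 300 bases, with 50 of them after the start. It was in 57.8% of the 45 windows, against 50.6% of the windows of tested genes. In the same 300 bases ACGTG was in 55.6%, against 25.9%. Slc2a3 had no window in the table used. The letters CACGTG, an E-box bound by MYC and related factors, contain ACGTG on both strands, so a match does not tell these factors apart, and a match is a description, not a site. The windows shown, a single one per gene, are those of 3 genes that varied strongly between mice and hold ACGTG (Ldha, Bnip3, Ankrd37). Also shown are Pdk1, which varied as strongly and holds no ACGTG, and Slc16a1, which varied little and holds ACGTG. Capitals mark ACGTG on either strand, or the whole E-box where it lies in one, and GCGTG is not marked. Each sequence runs 5′ to 3′ on the gene's strand, ending at the base before the start.
Ldha, chr7:46845554-46845803, plus strand: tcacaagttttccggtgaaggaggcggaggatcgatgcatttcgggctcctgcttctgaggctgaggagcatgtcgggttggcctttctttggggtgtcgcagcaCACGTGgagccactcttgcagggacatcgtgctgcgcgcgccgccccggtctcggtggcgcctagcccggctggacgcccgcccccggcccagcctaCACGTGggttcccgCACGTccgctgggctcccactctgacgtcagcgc
Bnip3, chr7:138909507-138909756, minus strand: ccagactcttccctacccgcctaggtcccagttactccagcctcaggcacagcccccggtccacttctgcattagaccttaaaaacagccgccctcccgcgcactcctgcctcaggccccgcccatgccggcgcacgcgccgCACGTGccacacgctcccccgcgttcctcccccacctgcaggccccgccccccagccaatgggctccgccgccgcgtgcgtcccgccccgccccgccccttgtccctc
Ankrd37, chr8:45999851-46000100, minus strand: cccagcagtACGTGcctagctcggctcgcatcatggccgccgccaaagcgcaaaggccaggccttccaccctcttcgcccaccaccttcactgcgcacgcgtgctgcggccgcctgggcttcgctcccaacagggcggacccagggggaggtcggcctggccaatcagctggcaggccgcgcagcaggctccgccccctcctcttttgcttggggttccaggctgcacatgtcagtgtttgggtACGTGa
Pdk1, chr2:71872974-71873223, plus strand: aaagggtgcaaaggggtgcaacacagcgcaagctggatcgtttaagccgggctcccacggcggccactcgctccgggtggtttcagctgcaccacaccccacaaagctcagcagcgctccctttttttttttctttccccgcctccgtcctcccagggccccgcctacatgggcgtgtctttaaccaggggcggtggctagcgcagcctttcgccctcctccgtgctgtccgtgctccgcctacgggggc
Slc16a1, chr3:104638414-104638663, plus strand: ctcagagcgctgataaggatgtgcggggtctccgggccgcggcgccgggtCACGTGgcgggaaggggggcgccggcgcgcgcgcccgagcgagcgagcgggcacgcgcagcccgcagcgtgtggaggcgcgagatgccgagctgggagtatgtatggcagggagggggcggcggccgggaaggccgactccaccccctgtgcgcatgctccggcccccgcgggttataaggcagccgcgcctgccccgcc
Position -1 is the last base before the start, and each match is given by its first base. The Ldha window shown holds the E-box at -145 and -48 and a further ACGTG on the other strand at -34. Another Ldha window, chr7:46846832-46847081, and another Pdk1 window, chr2:71874654-71874903, are not shown and hold no ACGTG. Bnip3 holds the E-box at -108. Ankrd37 holds ACGTG near both ends of the window, at -241 and -6. Slc16a1 holds the E-box at -200. Over the 300 bases around the starts shown, GCGTG was counted 2 times for Ldha, 3 for Bnip3, 2 for Ankrd37, 2 for Pdk1 and 2 for Slc16a1. Whether any match bears on the levels was not tested.

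These genes differed between mice of the same sex, with most enzymes and HIF targets high in female 1 and low in female 3. Female 1 had the highest level of the 6 libraries for 21 of 31 genes (67.7%), against 29.2% of all tested genes. Female 3 was lowest for 21 of 31 (67.7%, against 51.4% of all genes) and female 2 for 7 (22.6%, against 9.35%). The median deviation from the 6-library mean, in log2 units of TMM-scaled CPM + 1, was 0.72, -0.34 and -0.83 in females 1, 2 and 3 and 0.42, -0.17 and 0.31 in males 1, 2 and 3. Over all tested genes the same medians lay between -0.03 and 0.01. The median within-sex SD was 0.64 log2 units for these genes, against 0.27 for all tested genes.

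**Figure D3:**
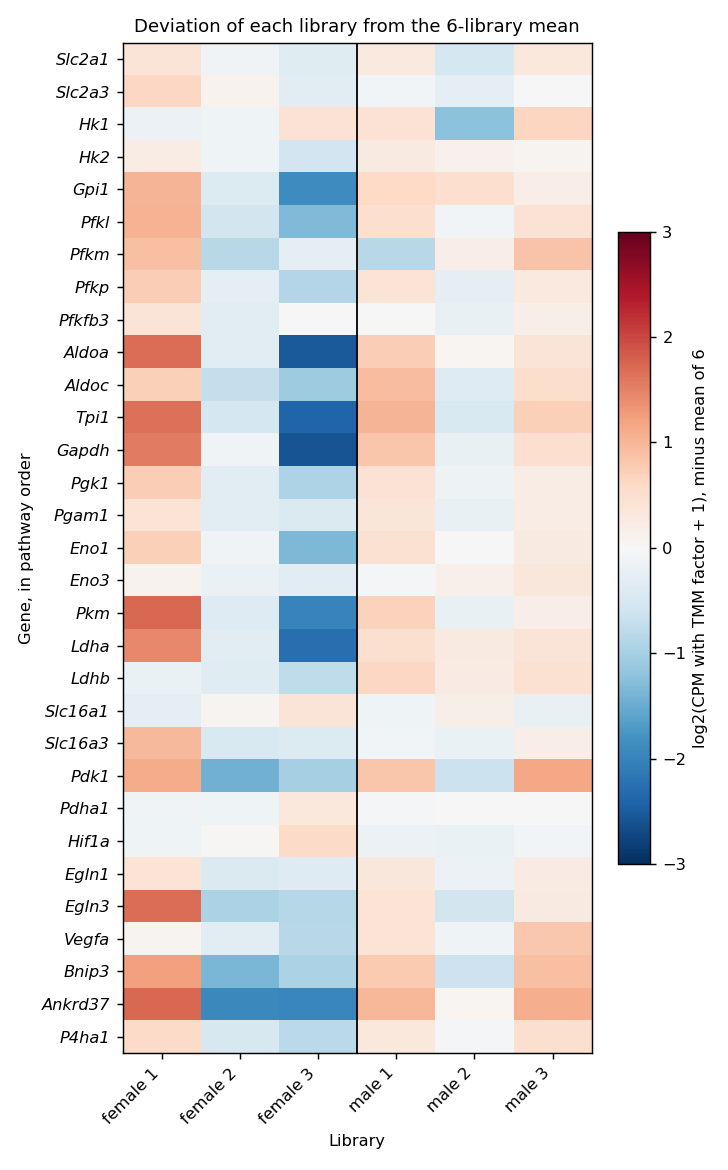
Deviation of each library from the 6-library mean on the log2(TMM-scaled CPM + 1) scale, 31 genes in pathway order (rows) by library (columns, females left of males), with colours ending at 3 in either direction. Female 1 is red and female 3 blue for most enzymes, while Slc16a1, Pdha1 and Hif1a are pale in all columns and faintly red in female 3.

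Pairs of libraries show the size of this spread. Taking genes with at least 10 counts in both libraries, female 1 was at least 2-fold above female 2 in 14 of 28 genes (50.0%, against 9.48% of all genes) and above female 3 in 22 of 27 (81.5%, against 27.7%). None of them was 2-fold lower in either pair. Among the males, male 1 was at least 2-fold above male 2 in 7 of 28 genes (25.0%, against 4.69%) and male 3 above male 2 in 8 of 29 (27.6%, against 3.91%). Single libraries give no test, and these counts describe the libraries.

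Several glycolytic enzymes were graded across the females. Tpi1 was 5.17-fold higher in female 1 than in female 2, and a further 5.80-fold higher in female 2 than in female 3. Aldoa gave 4.49-fold and 8.11-fold for the same steps, Gapdh 3.45-fold and 7.63-fold, and Ldha 3.74-fold and 4.96-fold. In Ankrd37, Bnip3 and Pdk1 females 2 and 3 were close to each other. Ankrd37 was 19.4-fold higher in female 1 than in female 2, with female 2 at 1.26 times female 3. Bnip3 was 6.92-fold higher in female 1 than in female 2, and female 2 was at 0.891 times female 3. Pdk1 was 6.68-fold higher in female 1 than in female 2, and female 2 was at 0.882 times female 3. In males the same 3 genes were 2.01-fold to 2.84-fold higher in male 1 than in male 2 and 2.12-fold to 3.53-fold higher in male 3 than in male 2, while Ldha was 1.16-fold higher in male 1 than in male 2 and 1.06-fold higher in male 3 than in male 2. Slc16a1 ran the other way, at 0.819 times in female 1 relative to female 2.

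Base composition and a B cell gene moved with the spread. The transcripts of these genes had a median GC content of 51.9% (range 41.3 to 57.7%), against 48.5% for all tested genes. Across genes, which are not independent and share these libraries, the log2 ratio of female 1 over female 3 had a Spearman correlation with GC content of 0.44 over 27 of these genes and 0.61 over 10158 genes. For female 1 over female 2 it was 0.18 over 28 of these genes and 0.45 over 10604 genes. With transcript length, the correlation for female 1 over female 3 was -0.65 in these genes and -0.21 in all genes. Bnip3 and Pdk1, at 41.6% and 46.4% GC, were below the median GC of all tested genes and were 6.17-fold and 5.89-fold higher in female 1 than in female 3. Cd79b, a B cell receptor subunit chosen after its values were seen, had 51.9, 22.3 and 5.20 CPM in females and 47.8, 31.8 and 43.4 CPM in males, the order of Gapdh. The part of base composition, length or library quality in the spread was not tested.

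**Figure D4:**
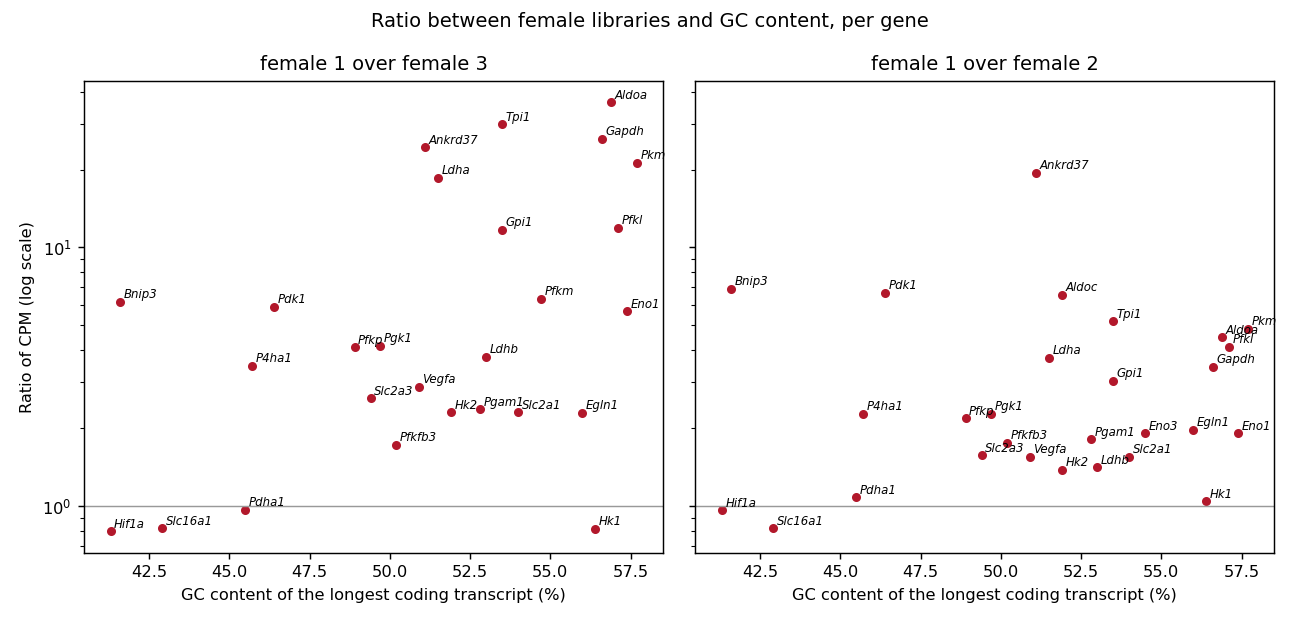
Ratio of CPM of female 1 over female 3 (left) and over female 2 (right), log scale, against the GC content of the longest coding transcript, 1 point per gene with at least 10 counts in both libraries. Hif1a, Slc16a1 and Pdha1, with low GC content, lie near or below 1, and Bnip3 and Pdk1, also with low GC content, lie near 6 or 7.

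Between the sexes, none of the 31 genes passed the test. None was called at an FDR of 0.05, and their lowest adjusted p was 0.999 (edgeR's quasi-likelihood test, Benjamini-Hochberg over 12172 genes, of which 7, or 0.0575%, were called). DESeq2 called none of them either, with a lowest adjusted p of 0.431 for Ldhb. Ldhb alone had an unadjusted p under 0.05, 1 of 31 genes (3.23%), against 2.89% of all tested genes. It was also the only gene without overlap, with every female below every male, against 7.55% of all tested genes. The median log2 fold change was -0.20, with 22 negative and 9 positive values, against a median of 0.00 and 49.9% negative over all genes. Single values ran from -1.56 for Ldhb to 0.67 for Egln3, whose SE was 1.43.

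Leaving out female 1 moved the median and the count of genes without overlap more than leaving out any other library. Without it the median was -1.24 (all genes -0.05), and females 2 and 3 were below every male for 23 of 31 genes (74.2%), against 28.8% of all tested genes. An edgeR p under 0.05 before adjustment, with lower values in females, was reached by 20 genes, against 5.18% of all genes. Hif1a passed the same limit with higher values in females. None of the 31 was called, and the lowest adjusted p was 0.0689, for Ankrd37, whose log2 fold change was then -3.23 ± 0.41 (SE). Without female 3, the library that stood apart, the median was 0.04 with 13 negative and 18 positive values, and without female 2 it was 0.01. Against all 6 libraries, 13 genes changed sign without female 3, 7 without female 2 and 6 without female 1. Without female 3, 3 of 31 genes did not overlap between the sexes, 2 of them lower in females (6.45%, against 10.8% of all tested genes). Ldhb was at -1.87 without female 1, -1.63 without female 2 and -1.25 without female 3. Hif1a was at 0.49 ± 0.19 (SE, edgeR adjusted p = 0.405) without female 1, 0.44 without female 2 and 0.10 without female 3.

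**Figure D5:**
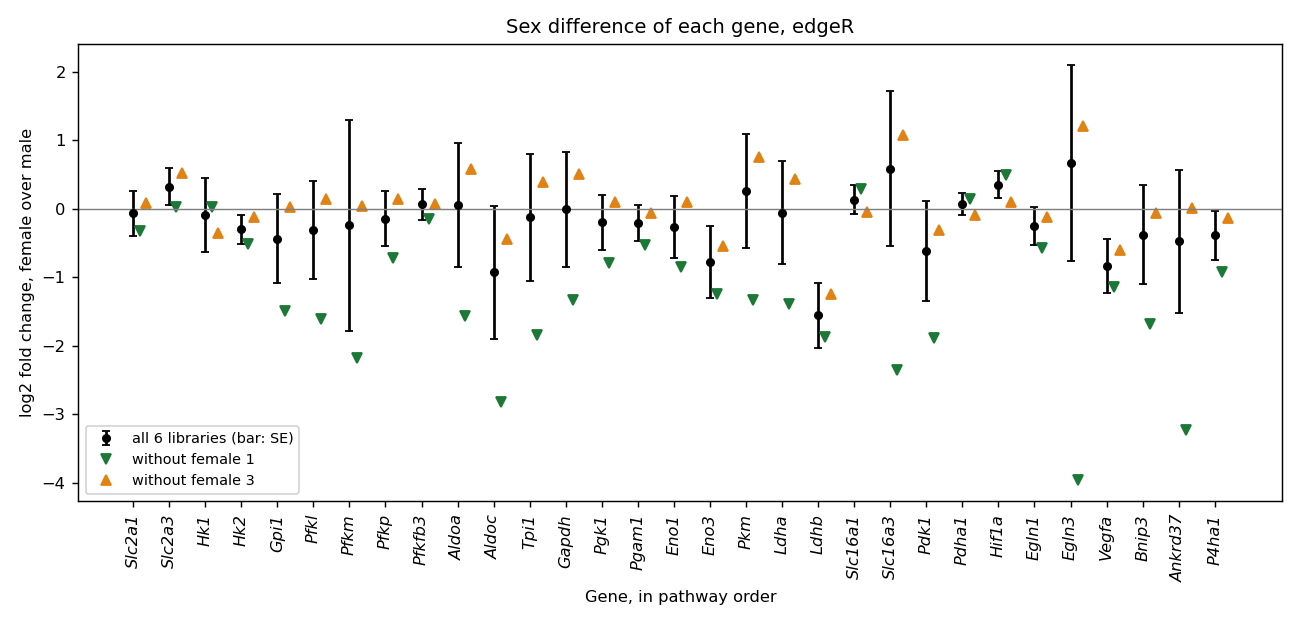
Log2 fold change of females over males (edgeR) for 31 genes in pathway order. Black points use all 6 libraries with bars of 1 SE, green triangles leave out female 1 and orange triangles leave out female 3, and most green triangles lie below the black points and most orange ones above.

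Other genes of the same pathways, taken from fixed lists, were not called in either direction. Of 20 further glycolysis genes 10 were tested, with 3 positive and 7 negative fold changes and a median of -0.07. Those with the smallest p were Pfkfb4, Adpgk and Pgm2, at log2 fold changes of -0.98 ± 0.57, 2.06 ± 1.3 and -0.53 ± 0.45 (SE). Pfkfb4 was low, at 0.104 to 0.772 CPM, and Adpgk was listed at 0 in female 3. Of 18 further pyruvate and lactate genes 15 were tested, with 7 positive and 8 negative values and a median of -0.03. Mpc1, a subunit of the mitochondrial pyruvate carrier, had 71.5, 98.0 and 117 CPM in females and 64.8, 47.6 and 63.3 CPM in males, so every female was above every male. Its log2 fold change was 0.88 ± 0.28 (SE), with an edgeR adjusted p of 0.999. All females were above all males for 2.69% of all tested genes. Slc16a6, a monocarboxylate transporter family member, had 60.7, 62.6 and 67.1 CPM in females and 85.8, 106 and 108 CPM in males, without overlap. Its log2 fold change was -0.50 ± 0.19 (SE, edgeR adjusted p = 0.999). All females were below all males for Slc16a6, as for 7.55% of all tested genes. Pdhx, a component of the pyruvate dehydrogenase complex, had a log2 fold change of 0.28 ± 0.18 (SE).

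Of 23 further hypoxia genes all 23 were tested, with 12 positive and 11 negative values and a median of 0.01. Hmox1, the heme oxygenase, Plin2, a lipid droplet protein, and Adm, adrenomedullin, had the smallest p, at log2 fold changes of 1.09, -1.22 and 1.38. Bnip3l, the mitophagy receptor related to Bnip3 and chosen after its values were seen, had 264, 108 and 107 CPM in females and 244, 217 and 248 CPM in males, with females 2 and 3 alike and low. All 7 genes of the pentose phosphate pathway, a branch of glycolysis that makes NADPH and ribose, were tested, with 3 positive and 4 negative values and a median of -0.01. Rpe, the ribulose phosphate epimerase, Tkt, the transketolase, and Rpia, the ribose phosphate isomerase, had log2 fold changes of 0.53, 0.44 and -0.08.

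Markers of other cells were low in all libraries. The 11 monocyte and macrophage markers in the table summed to 8.21 to 10.5 CPM in females and 2.92 to 4.57 CPM in males. All 5 that were tested had positive fold changes and none was called. Lyz2, a lysozyme of myeloid cells named after its values were seen, had 2.39, 3.32 and 2.20 CPM in females and 0.282, 0.290 and 0.390 CPM in males, without overlap. Its log2 fold change was 3.15 ± 0.40 (SE, edgeR adjusted p = 0.0837). Spic, a transcription factor of red pulp macrophages named in the same way, had 1.34, 2.16 and 0.929 CPM in females and 0.307, 0.343 and 0.400 CPM in males, and its log2 fold change was 2.19 ± 0.45 (SE, edgeR adjusted p = 0.797). Lyz2 and Spic were without overlap and higher in females, as were 2.69% of all tested genes. The complement genes C1qa, C1qb and C1qc were at or under 0.0678 CPM in females and at 0 in males. T cell markers summed to 3.43 to 5.25 CPM in females and 1.28 to 3.23 CPM in males. Neutrophil markers stayed at 0.612 CPM or below in females and 0.269 CPM or below in males, erythroid markers at 2.38 CPM or below in females and 0.495 CPM or below in males, and platelet markers at 0.299 CPM or below in females and 0.0971 CPM or below in males. Stromal and endothelial markers summed to 0.712 to 1.43 CPM in females and 1.17 to 1.28 CPM in males. The macrophage sum did not follow the order of the glycolysis genes in females, with 8.21, 10.5 and 8.30 CPM in females 1, 2 and 3, and its part in the sex comparison was not tested.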

How the data were processed

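RNA sequencing of 6 libraries was used, 3 from females and 3 from males. The authors deposited a table of estimated counts with 41669 gene symbols as rows and a column for each mouse. The submitters' processing notes name kallisto, DESeq2 and the build GRCm38.p6 (versions and settings not given in the sources used here). Deposited values differed in their library totals and were rounded to whole numbers for tests. Totals ran from 24089561 to 35659883, and the floor of 3 counts covers counting error only.

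CPM was computed per library total. The sexes were compared in edgeR 4.0.16 in R 4.3.3 (filterByExpr by sex, TMM, glmQLFit, glmQLFTest, Benjamini-Hochberg at 0.05 over 12172 genes), and the biological coefficient of variation was 0.351. Transcript lengths, GC content and near-identical copies came from the GENCODE annotation of GRCm38 and BLASTN 2.17.0, and 94.14% of symbols matched. Promoter windows were from RefSeq GRCm38.p6. Isoform shares were compared with exact permutation tests (scipy 1.17.1). The edgeR test, not the permutation test, was run on counts simulated from its dispersion trend with no library set apart. The outcome is not given here. Alternatives were DESeq2 1.42.0, RLE factors, library totals, no filter, at least 1 CPM in 3 libraries, a block for replicate number, and each library left out.

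The labels number the mice within each sex and do not say that a number is shared between sexes, so p-values measure the spread between these mice. Of the 32 genes, values per library were given for the most abundant of each step, those of an isoform family and those with an unadjusted p under 0.05 or no overlap. Up to 3 genes per further pathway list were named by smallest p, with values per library for Mpc1 and Slc16a6, and marker lists were given as sums. The genes and lists were chosen with earlier results of these data known. The minimum of 10 counts for ratios, the genes used as examples for ratios between mice, and Gapdh, Pgk1, Pdk1, Vegfa, Ankrd37, P4ha1, Cd79b, Bnip3l, Lyz2 and Spic with values in every library, were chosen after the data were seen.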

Additional observations from a re-analysis of the deposited data

How the results depend on the processing

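None of the 31 genes was called under any alternative run, and the lowest adjusted p was 0.0689 for Ankrd37 without female 1. Of all genes, 21 were called higher and 11 lower in females by DESeq2, 5 higher without the low-count filter, and 2 to 6 higher and 1 to 6 lower with each library left out, against 3 and 4. With library totals in place of TMM the median of all genes was -0.12 and 3 genes turned negative, Pfkfb3 to -0.06, Slc16a1 to -0.03 and Pdha1 to -0.08. Samples with the same number deviated together with correlations of 0.22, 0.04 and 0.07, so the numbers were not taken to pair the mice. With the replicate block the median of the 31 genes was -0.56, Hk1 was at 0.13, Aldoa -0.81, Pkm -0.47, Slc16a3 -0.56 and Egln3 -1.29, and the cause was not tested. With each library left out, the median ranged from -1.24 to 0.04 and the genes without overlap from 1 to 24. Without female 1, 23 of the 24 were lower in females (74.2%, against 28.8% of all tested genes), and without any other library 1 to 3 genes were lower, at most 9.68%, against 10.8 to 13.4% of all tested genes. Log2 fold changes that changed sign ranged from -0.33 to 0.08 for Slc2a1, -0.53 to 0.28 for Hk1, -1.50 to 0.02 for Gpi1, -1.61 to 0.14 for Pfkl, -2.18 to 0.85 for Pfkm, -0.72 to 0.14 for Pfkp, -0.15 to 0.21 for Pfkfb3, -1.57 to 0.58 for Aldoa, -1.85 to 0.39 for Tpi1, -1.33 to 0.51 for Gapdh and -0.80 to 0.09 for Pgk1. The same held from -0.86 to 0.10 for Eno1, -1.34 to 0.75 for Pkm, -1.40 to 0.43 for Ldha, -0.05 to 0.29 for Slc16a1, -2.36 to 1.10 for Slc16a3, -0.10 to 0.16 for Pdha1, -3.97 to 1.23 for Egln3, -1.69 to 0.01 for Bnip3 and -3.23 to 0.01 for Ankrd37. The difference in share, females minus males, ranged from -4.62 to 1.00 percentage points for Hk2, -0.154 to 0.0932 for Slc16a1 and -3.23 to 2.94 for Egln1. Pfkm and Slc16a3 were under the floor of 3 counts in 2 libraries each and Egln3 in 1.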
